A study of Mus musculus with 6 samples.

Results

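The genes described here are Ppara, which encodes the nuclear receptor PPARα, and 7 enzymes of fatty acid oxidation and ketogenesis, namely Cpt1a, Cpt2, Ehhadh, Acadm, Acadl, Hadha and Bdh1. These 8 genes were taken by symbol from the 18419 genes with an expected count in any library and from the 21362 genes of the FPKM table. Livers came from Mettl14 f/f male mice that were placed on a high fat diet (HFD) at 8 weeks of age for 10 weeks. The mice then received AAV8-TBG-GFP or AAV8-TBG-Cre through the tail vein, and bulk RNA-seq was performed 8 weeks after the injection. By the paper's methods, transduced mice stayed on the HFD after the injection until the metabolic tests. Its RNA-seq methods do not name the diet between injection and harvest. Both groups therefore carried the floxed Mettl14 alleles, the HFD and an AAV8 vector. The GFP group (n = 3 mice) differed from the Cre group (n = 3 mice) in the protein that the vector encoded. By the paper's methods the vectors also differed in source, as the Cre vector came from Addgene and the others were made in the lab. The TBG promoter is active in hepatocytes, so that other liver cells of the Cre group keep their Mettl14 alleles. METTL14 is the structural partner of METTL3 in the complex that installs N6-methyladenosine on RNA, and the comparison asks which liver transcripts change after its deletion in hepatocytes of adult mice.

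In the liver, fatty acids released during fasting or supplied by a fatty diet are activated to acyl-CoA, carried into mitochondria as acylcarnitines and shortened there by β-oxidation. Very long chains and dicarboxylic acids are shortened in peroxisomes. Much of the resulting acetyl-CoA is turned into ketone bodies for other organs. PPARα, bound to DNA with its partner RXR, is activated by fatty acids and by fibrate drugs and switches on genes of each of these steps.

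The 6 libraries held between 20356440 and 21010508 expected counts (estimated fragments per transcript, summed per gene), and 13431 genes were tested. The first principal component of all genes (54.1% of the variance) separated the groups. Mettl14 itself had 124, 126 and 111 counts in the GFP livers and 104, 131 and 101 in the Cre livers. In CPM (library-size-scaled counts, normalized by the TMM method) it was at 6.30, 6.43 and 5.81 against 4.96, 5.38 and 4.86, without overlap. Of all genes tested, 13.0% were lower with Cre without overlap in CPM. In FPKM, scaled by transcript length and library size, it was at 2.31, 2.31 and 2.01 against 1.92, 2.40 and 1.82, with overlap. Its log2 fold change was -0.29 (adjusted p = 0.337 with edgeR). These values are no clear check of the labels of the Cre livers. Whole-gene counts do not separate the floxed exons from the rest of the transcript. The library names in the labels have 2 digits for GFP replicates 1 and 2 and Cre replicate 1, and 4 digits for GFP replicate 3 and Cre replicates 2 and 3. The labels do not say what the form of the name marks, and its values are given beside the results because several of these genes moved with it.

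Ppara (chr15:85734910-85806851, GRCm38.p6) was the member whose GFP and Cre livers were furthest apart relative to their spread. Its level was 606, 615 and 572 CPM in the GFP livers. In the Cre livers it was 446, 371 and 437 CPM. Every Cre liver lay below every GFP liver. The means were 598 ± 22.4 and 418 ± 40.8 CPM (SD, n = 3 each), a level 1.43-fold higher with GFP. The log2 fold change (Cre over GFP) was -0.52 with a standard error of 0.14, an unadjusted p of 0.00576 and an adjusted p of 0.0970 with edgeR's quasi-likelihood test. The exact two-sided permutation test gave p = 0.1, the smallest value that 3 against 3 mice allow. Ppara was thus past a nominal threshold (unadjusted p under 0.05, with a change of 1.2-fold or more) and not past an adjusted p of 0.05. DESeq2 gave an adjusted p of 0.00122. In bulk tissue, fewer cells that express a gene and less RNA per cell cannot be told apart.

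None of the 8 genes passed the adjusted threshold with edgeR, against a background of 0.931% of all genes tested (125 of 13431), or with limma on FPKM. DESeq2 called Ppara alone, against a background of 7.44% of the genes to which it gave an adjusted p (1157 of 15559). At the nominal threshold 1 of the 8 genes was called, Ppara, and the background was 20.5% of all genes, made up of 12.0% higher and 8.41% lower with Cre. Genes whose Cre livers all lay below the GFP livers made up 13.0% of all genes tested, and Ppara was the 1 member among them. A share of 1 in 8 is not above the 20.5% background. The shares of 12.0% and 8.41% are also the background of the nominal edgeR calls in the gene lists below, with the vector as the only factor. The exact permutation p of the other 7 genes lay between 0.3 and 1.

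**Figure D1:**
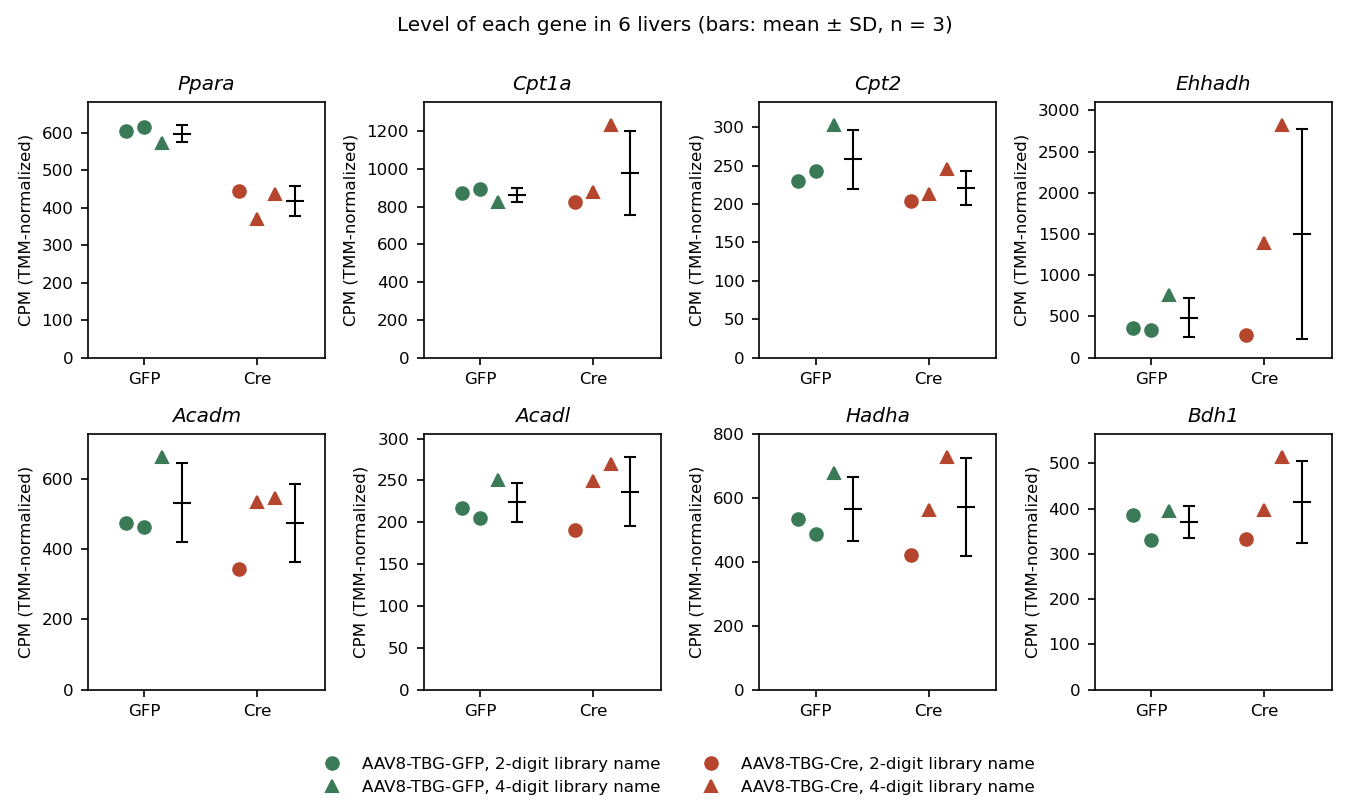
Level of the 8 genes in each liver, in TMM-normalized CPM on a linear axis from 0. Points are single livers (circles, 2-digit library names; triangles, 4-digit names) and black bars are the mean ± SD of 3 livers. Ppara is the only gene without overlap between GFP (572 to 615 CPM) and Cre (371 to 446 CPM), and Ehhadh spans 273 to 2817 CPM within the Cre group.

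The lower level of Ppara had similar size in both forms of the library name. The log2 ratio of the single Cre liver to the mean of the 2 GFP livers with 2-digit names was -0.45, and that of the 2 Cre livers to the GFP liver with 4-digit names was -0.50. Adding the name form to the fit gave a vector effect of -0.48 on the log2 scale (edgeR, adjusted p = 0.121). Over the 16 alternative settings it lay between -0.57 and -0.35, below 0 in each. Ppara was counted from 2 transcripts. NM_001113418 held 74.1 ± 3.58% of its counts in GFP livers and 70.4 ± 4.91% in Cre livers (SD, n = 3 each), with overlapping ranges, and NM_011144 held the rest.

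The binding partner of PPARα was at more similar levels in both groups. Rxra, which encodes RXRα, measured 713, 637 and 650 CPM in GFP livers and 629, 573 and 662 CPM in Cre livers (log2 fold change -0.10, adjusted p = 0.721). On the FPKM scale, which corrects for transcript length, the ratio of Ppara to Rxra was 0.632 ± 0.0433 in GFP livers and 0.471 ± 0.0213 in Cre livers (exact permutation p = 0.1, and 0.16 after adjustment over the 8 ratios computed). The log2 fold change of Ppargc1a, the coactivator PGC-1α, was 0.11 (adjusted p = 0.739). Among the 17 genes of the list of PPARα, its partners and coregulators, 3 were lower and 0 higher at the nominal threshold, and their median log2 fold change was -0.10 beside -0.0065 over all genes. On log2(FPKM + 1) this median turned to 0.060, beside 0.11 over all genes. The other two were Pparg (21.0, 22.8 and 21.8 CPM against 15.9, 17.5 and 15.0 CPM), the adipogenic member of the family, and Sirt3, a mitochondrial deacetylase (log2 fold change -0.30, adjusted p = 0.212). The Pparg values did not overlap between the groups (log2 fold change -0.44, adjusted p = 0.0821).

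Long-chain acyl groups enter mitochondria through CPT1A on the outer membrane, the step that malonyl-CoA inhibits, and CPT2 on the inner membrane returns them to CoA. Cpt1a (chr19:3322326-3385735) measured 870, 892 and 825 CPM in GFP livers and 824, 879 and 1232 CPM in Cre livers. The highest value was that of Cre replicate 3, and the other two Cre livers lay within or just below the GFP range. Its log2 fold change was 0.18 ± 0.19 (SE; adjusted p = 0.633), and without Cre replicate 3 it was -0.021. Cpt2 (chr4:107903982-107923589) measured 231, 243 and 303 CPM against 204, 213 and 246 CPM, with overlap between the groups. The log2 fold change of Cpt2 was -0.23 ± 0.15 (SE; adjusted p = 0.432). The ratio of Cpt1a to Cpt2 in FPKM was 1.84 ± 0.314 in GFP livers and 2.38 ± 0.292 in Cre livers, without overlap (exact permutation p = 0.1, adjusted 0.16).

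The neighbours of the CPT enzymes were on the same side as Cpt2 without passing the test. Acsl1, which activates long-chain fatty acids to acyl-CoA, had 1819, 1913 and 2689 CPM in GFP livers and 1119, 1622 and 1849 CPM in Cre livers (log2 fold change -0.48, adjusted p = 0.320). For Slc25a20, the carnitine-acylcarnitine carrier of the inner membrane, the log2 fold change was -0.21 (adjusted p = 0.592). Of the 14 genes of activation and the carnitine shuttle, 1 was higher and 1 lower at the nominal threshold. The higher one was Acsl4, an acyl-CoA synthetase that prefers arachidonic acid, at 51.6, 51.5 and 37.9 CPM in GFP livers and 72.4, 75.4 and 89.4 CPM in Cre livers (log2 fold change 0.75, adjusted p = 0.0619). The lower one was Slc22a5, the plasma membrane carnitine transporter OCTN2 (log2 fold change -0.43, adjusted p = 0.222).

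Acadm, Acadl and Hadha, enzymes of mitochondrial β-oxidation, were not past the nominal threshold with the vector as the only factor. Acadm (chr3:153922353-153944643), the medium-chain acyl-CoA dehydrogenase, measured 472, 462 and 660 CPM in GFP livers and 344, 533 and 543 CPM in Cre livers (log2 fold change -0.17 ± 0.23 SE, adjusted p = 0.724). Acadl (chr1:66830839-66863309), the long-chain acyl-CoA dehydrogenase, measured 217, 205 and 250 CPM against 191, 249 and 270 CPM (log2 fold change 0.08 ± 0.16 SE, adjusted p = 0.816). Hadha (chr5:30119423-30154980), the α subunit of the trifunctional protein, measured 534, 486 and 679 CPM against 422, 564 and 728 CPM (log2 fold change 0.01 ± 0.23 SE, adjusted p = 0.985). In all 3 genes the groups overlapped. The lowest liver in each was Cre replicate 1, and GFP replicate 3 was above the other two GFP livers.

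Hadhb encodes the β subunit that assembles with HADHA. It measured 262, 237 and 332 CPM in GFP livers and 198, 296 and 370 CPM in Cre livers, and the order of the 6 libraries was that of Hadha. The FPKM ratio of Hadha to Hadhb was 1.09 ± 0.00253 in GFP livers and 1.07 ± 0.0625 in Cre livers (exact permutation p = 0.7), so that the 2 subunits kept nearly the same ratio while each varied between livers. The FPKM ratio of Acadm to Acadl was 2.23 ± 0.234 with GFP and 1.87 ± 0.164 with Cre (exact permutation p = 0.1, adjusted 0.16).

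Of the 17 genes of mitochondrial β-oxidation, 0 were higher and 1 was lower at the nominal threshold with edgeR. The lower gene was Hadh, the short-chain hydroxyacyl-CoA dehydrogenase, at 522, 519 and 561 CPM in GFP livers and 414, 408 and 392 CPM in Cre livers (log2 fold change -0.40, adjusted p = 0.132), without overlap. The log2 fold change was -0.12 (adjusted p = 0.717) for Acadvl, the very long-chain dehydrogenase. Acads, the short-chain dehydrogenase, had -0.20 (adjusted p = 0.417), and Acaa2, the matrix thiolase, had -0.15 (adjusted p = 0.581). With edgeR the list had 13 of 17 log2 fold changes below 0 and a median of -0.15, which turned to 0.022 on log2(FPKM + 1), where the median of all genes was 0.11.

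Ehhadh (chr16:21761285-21787834), the peroxisomal bifunctional enzyme that hydrates and dehydrogenates chain-shortened and dicarboxylic acyl-CoAs and a classic target of PPARα agonists in rodents, had the widest spread of the 8 genes. It measured 353, 340 and 761 CPM in GFP livers. In Cre livers it measured 273, 1393 and 2817 CPM. Cre replicate 1 was the lowest of all 6 livers and Cre replicates 2 and 3 the highest, so that the groups overlapped. The means were 485 ± 239 and 1494 ± 1275 CPM (SD, n = 3 each), and the log2 fold change was 1.62 ± 0.73 (SE; p = 0.0589, adjusted p = 0.259 with edgeR; exact permutation p = 0.4). This value depended on single libraries. It was 2.12 without Cre replicate 1 (adjusted p = 0.0378), 0.78 without Cre replicate 3 (adjusted p = 0.590) and 0.56 with the name form as a covariate (adjusted p = 0.551). The log2 ratio of Cre to GFP was -0.34 among the libraries with 2-digit names and 1.47 among those with 4-digit names, a difference of 1.81 in an edgeR fit added after the data were seen (unadjusted p = 0.0194, adjusted p = 0.821). In that fit 2 of the 4 combinations of vector and name form hold 1 library each, assumed to vary like the others.

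The constitutive counterpart of Ehhadh was on the other side of 0. Hsd17b4, the peroxisomal D-bifunctional protein, measured 671, 643 and 735 CPM in GFP livers and 435, 540 and 641 CPM in Cre livers (log2 fold change -0.34, adjusted p = 0.315). The FPKM ratio of Ehhadh to Hsd17b4 was 0.469, 0.471 and 0.923 in GFP livers and 0.560, 2.30 and 3.91 in Cre livers (exact permutation p = 0.2).

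Of the 18 genes of peroxisomal β-oxidation, 4 were lower and 0 higher at the nominal threshold with edgeR, beside 8.41% and 12.0% of all genes. The list's median log2 fold change was -0.26, beside -0.0065 over all genes. On log2(FPKM + 1) it was -0.096, beside 0.11 over all genes. Pex11a, a peroxisome proliferation factor of the peroxisomal membrane, was the 1 gene of all 93 pathway genes past the adjusted threshold. It measured 72.4, 80.1 and 98.1 CPM in GFP livers and 30.7, 42.7 and 36.0 CPM in Cre livers (log2 fold change -1.20 ± 0.16 SE, adjusted p = 0.0338). Its adjusted p rose above 0.05 in 9 of 16 alternatives, up to 0.150, while the log2 fold change stayed between -1.33 and -1.01. Acot4, a peroxisomal succinyl-CoA thioesterase of a family of close copies, was also lower at this threshold (log2 fold change -0.73, adjusted p = 0.184).

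Bdh1 (chr16:31422297-31458901) encodes the mitochondrial dehydrogenase that reduces acetoacetate to β-hydroxybutyrate, the last step of ketogenesis. It measured 387, 331 and 395 CPM in GFP livers and 333, 398 and 513 CPM in Cre livers, with overlap and with Cre replicate 3 highest. The log2 fold change was 0.16 ± 0.18 (SE; adjusted p = 0.662), and without Cre replicate 3 it was -0.023. Of the 2 transcripts of Bdh1, NM_175177 held between 99.3% and 99.9% of the counts in every liver.

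Acat1, the mitochondrial acetoacetyl-CoA thiolase, measured 520, 505 and 615 CPM in GFP livers and 465, 446 and 503 CPM in Cre livers (log2 fold change -0.21, adjusted p = 0.435). Of the 9 genes of ketogenesis and ketone export, 1 was higher and 1 lower at the nominal threshold. Oxct1, the enzyme of ketone body use that hepatocytes express at very low levels, had 3.15, 3.47 and 2.30 CPM in GFP livers and 4.77, 8.17 and 5.25 CPM in Cre livers (log2 fold change 1.03, adjusted p = 0.0981). For Slc16a6, a ketone body exporter, the log2 fold change was -0.61 (adjusted p = 0.141).

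**Figure D2:**
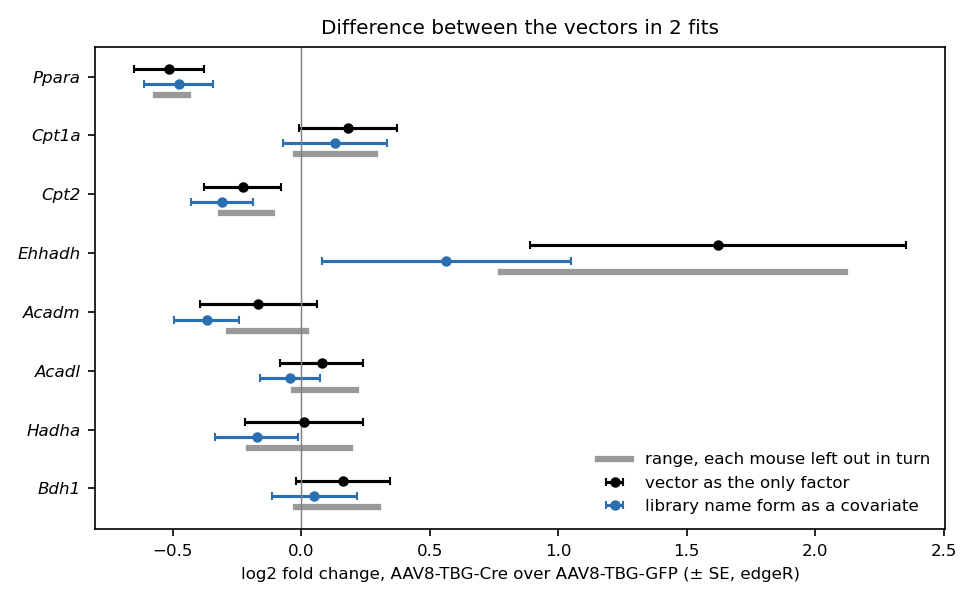
Log2 fold change of the 8 genes, Cre over GFP, from edgeR with the vector as the only factor (black) and with the name form as a covariate (blue), each ± SE. Grey bars span the values with each of the 6 mice left out in turn. Ppara stays below 0 throughout, and Ehhadh moves from 1.62 to 0.56 when the name form is a covariate.

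Per transcript length, the GFP livers held most Acadm, at 242 ± 43.4 FPKM, followed by Cpt1a at 186 ± 12.2 FPKM, and the values of these 2 genes did not overlap. Ehhadh at 149 ± 69.0 FPKM and Hadha at 137 ± 20.7 FPKM did not differ beyond their spread. Bdh1 at 111 ± 9.87 FPKM, Acadl at 108 ± 8.52 FPKM and Cpt2 at 102 ± 12.1 FPKM lay within 1 SD of each other. Ppara was lowest at 76.4 ± 4.94 FPKM, below every value of Cpt2. In Cre livers Ehhadh had the highest mean, 517 ± 414 FPKM, with single livers at 92.0, 541 and 918 FPKM, so that it was below Acadm in Cre replicate 1. Ppara again was lowest, at 61.4, 59.2 and 58.5 FPKM. The FPKM scale shifted the median log2 fold change of all genes by 0.15 relative to the TMM-normalized counts, and Ppara stayed below 0 on it at -0.35 (adjusted p = 0.133 with limma).

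**Figure D3:**
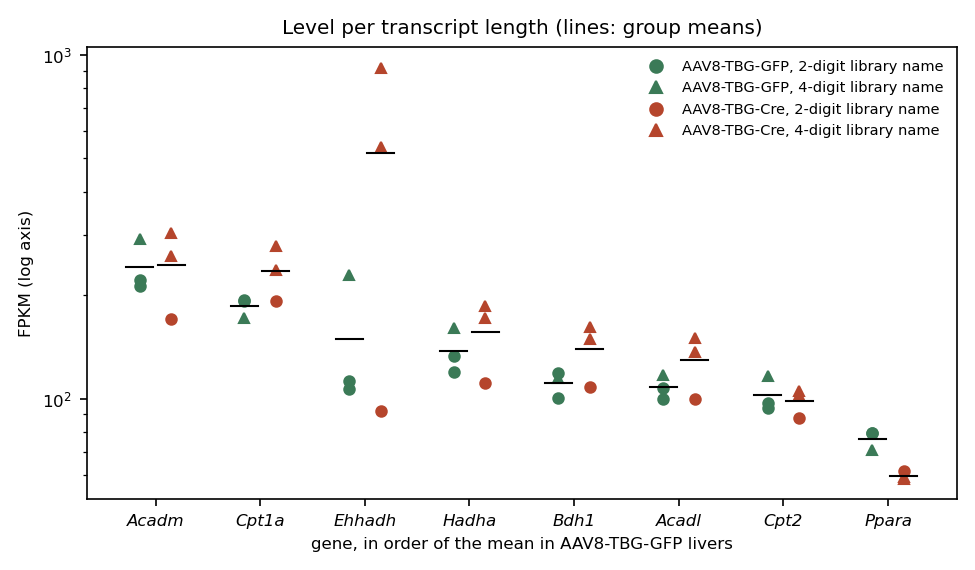
FPKM of the 8 genes in each liver on a log axis, genes ordered by their mean in GFP livers, with lines at the group means and the same symbols for the name form. Acadm leads in GFP livers at a mean of 242 FPKM and Ppara is lowest at 76.4 FPKM, and Ehhadh runs from 92.0 to 918 FPKM within the Cre group.

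In the 6 pathway lists together, 93 genes were tested, and 13 were lower and 2 higher at the nominal threshold (backgrounds of 8.41% and 12.0% of all genes). Of these 93 genes, 66 (71.0%) had a log2 fold change below 0, beside 51.0% of all genes, and the median was -0.18. On log2(FPKM + 1), where the median of all genes was 0.11, the median of the 93 genes was -0.023 and 53 were below 0, and 67 lay below the median of all genes. Leaving out the 8 genes, 63 of 85 were below 0. Among 18 other PPARα target genes, 3 were lower and 0 higher at the nominal threshold with edgeR. They were Slc25a42, a mitochondrial CoA carrier (log2 fold change -0.59, adjusted p = 0.0637), Angptl4, an inhibitor of lipoprotein lipase (-0.91, adjusted p = 0.107), and Vnn1, a pantetheinase (-1.10, adjusted p = 0.131). Fgf21, the fasting hepatokine, measured 11.8, 4.69 and 20.3 CPM against 2.39, 14.9 and 8.76 CPM with overlap (log2 fold change -0.49, adjusted p = 0.720). For Pdk4, the kinase that inhibits pyruvate dehydrogenase, it was 0.15 (adjusted p = 0.904). The gene annotation deposited with the counts puts 39 genes under fatty acid β-oxidation, Cpt1a, Ehhadh, Acadm and Hadha among them. Of its 37 tested genes 5 were lower, Slc25a17, Hadh and Pex7 among them (Slc25a17 and Pex7 are named after their values were seen), and 0 higher at the nominal threshold with edgeR, 0 passed the adjusted threshold, and the median was -0.19.

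Several of the 8 genes also differed between the forms of the library name. In the edgeR fit with both terms, whose name-form coefficient was read after the data were seen, the name form (4 over 2 digits) had a log2 coefficient of 2.04 for Ehhadh (adjusted p = 0.0982), 0.57 for Acadm (adjusted p = 0.0844), 0.51 for Hadha (adjusted p = 0.176) and 0.34 for Acadl (adjusted p = 0.206). These 4 of 8 genes were past the nominal threshold toward the 4-digit names, as were 40 of the 93 pathway genes, against 8.11% of all genes tested. None of the 8 passed an adjusted p of 0.05 for this term. Ppara had a coefficient of -0.12 (adjusted p = 0.719). In this fit the vector term was past the nominal threshold on the lower side for 3 of 8 genes, against a background of 8.82%. They were Ppara, Cpt2 (log2 fold change -0.31, adjusted p = 0.213) and Acadm (-0.37, adjusted p = 0.173). It was so for 34 of the 93 pathway genes, and 2 were higher. Crat, the carnitine acetyltransferase, Pex11a and Vnn1 then passed the adjusted threshold as lower with Cre, with adjusted p of 0.0408, 0.0058 and 0.0125. What the form of the name stands for was not tested.

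**Figure D4:**
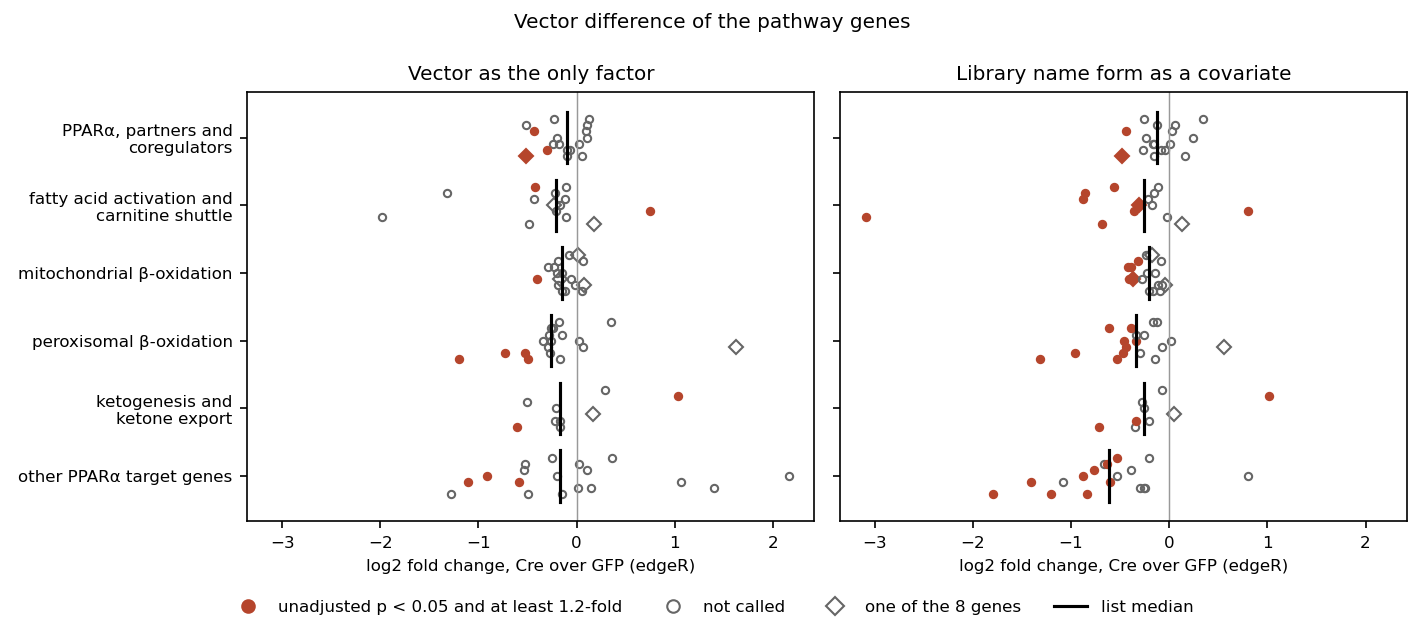
Log2 fold change (Cre over GFP) of the 93 genes of the 6 pathway lists, with the vector as the only factor (left) and with the name form as a covariate (right). Filled symbols passed the nominal threshold, diamonds are the 8 genes and black lines the list medians. Filled symbols below 0 number 13 on the left and 34 on the right.

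The promoter windows shown are those of the 4 genes past the nominal threshold for the name form, a choice made after the data were seen. They are the 250 bases before the start site of each gene in the RefSeq promoter table (GRCm38.p6, minus strand, written 5′ to 3′ in the direction of transcription), with matches to the nuclear receptor hexamer AGGTCA, or TGACCT on the other strand, in capitals. The windows are chr16:21787835-21788084 for Ehhadh, chr3:153944644-153944893 for Acadm, chr1:66863310-66863559 for Acadl and chr5:30154981-30155230 for Hadha.
Ehhadh: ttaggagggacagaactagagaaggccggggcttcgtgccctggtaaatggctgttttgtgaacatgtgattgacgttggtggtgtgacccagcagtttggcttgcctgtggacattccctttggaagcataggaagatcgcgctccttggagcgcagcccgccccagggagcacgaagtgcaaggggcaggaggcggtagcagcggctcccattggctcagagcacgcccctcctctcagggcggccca
Acadm: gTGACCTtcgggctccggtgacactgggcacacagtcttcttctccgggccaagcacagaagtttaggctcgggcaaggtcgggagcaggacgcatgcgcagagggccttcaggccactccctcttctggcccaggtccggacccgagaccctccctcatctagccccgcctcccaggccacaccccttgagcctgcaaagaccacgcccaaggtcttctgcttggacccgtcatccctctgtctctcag
Acadl: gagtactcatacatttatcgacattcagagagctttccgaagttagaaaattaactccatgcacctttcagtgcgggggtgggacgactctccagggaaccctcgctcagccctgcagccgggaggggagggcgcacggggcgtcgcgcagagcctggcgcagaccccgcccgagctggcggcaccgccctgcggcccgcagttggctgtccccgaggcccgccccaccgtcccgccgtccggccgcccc
Hadha: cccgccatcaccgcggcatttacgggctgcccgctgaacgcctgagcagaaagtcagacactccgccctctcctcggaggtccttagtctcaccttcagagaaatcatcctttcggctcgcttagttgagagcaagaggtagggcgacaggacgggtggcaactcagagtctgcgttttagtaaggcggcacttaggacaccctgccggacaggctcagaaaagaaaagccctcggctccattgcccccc
All 8 genes matched the table, with 9 windows. For Ppara and Cpt1a the start site of the table lies inside the gene span given above, so that their windows overlap that span. The Bdh1 window at chr16:31428503-31428752 also lies inside its gene span. The hexamer was in 2 of 9 windows, those of Acadm (249 bases before the start site) and Cpt1a (94 bases before the start site of the table), and in 14.0% of 32851 promoters of the same table. The direct repeat AGGTCANAGGTCA, searched on both strands, was in 0 of 9 windows and in 0.0335% of all promoters, and its looser form AGGNCANAGGNCA was in 0 of 9 and in 0.338%. Each match to a repeat with AGGTCA also counts as a hexamer. The search says only which of these windows hold these letters.

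The library pattern of Ehhadh was shared by some other PPARα target genes and not by others. Angptl4 was highest in GFP replicate 3 (257 CPM) and lowest in Cre replicate 3 (82.4 CPM). Slc25a42 was highest in GFP replicate 2 (186 CPM), and Pex11a had a Pearson's r of -0.29 with Ehhadh over the 6 libraries. The genes that follow are examples that shared the pattern. Cyp4a10, a fatty acid ω-hydroxylase, measured 635, 389 and 1734 CPM in GFP livers and 165, 2605 and 4498 CPM in Cre livers (log2 fold change 1.40, adjusted p = 0.476). Cyp4a14 measured 698, 270 and 2023 CPM against 70.4, 2398 and 3761 CPM (log2 fold change 1.06, adjusted p = 0.652). Cyp4a genes are close copies, and reads shared between them make their levels uncertain. Crot, the peroxisomal carnitine octanoyltransferase, was chosen after its values were seen and measured 445, 439 and 1139 CPM against 387, 908 and 1281 CPM. In Cyp4a10, Cyp4a14 and Crot, as in Ehhadh, Cre replicate 1 was the lowest library, Cre replicate 3 the highest, and the GFP liver with a 4-digit name was above both other GFP livers. In the fit that includes the name form the vector effect was -0.30 for Cyp4a10, -1.08 for Cyp4a14 and -0.13 for Crot on the log2 scale (adjusted p = 0.844, 0.556 and 0.734). For Cyp4a31, chosen after its values were seen, it was 0.81 (adjusted p = 0.339), and its levels were 10.1, 6.02 and 44.1 CPM in GFP livers and 7.16, 103 and 159 CPM in Cre livers.

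The genes with the most similar pattern were named by Pearson's r of log2 CPM over the 6 libraries among 8455 genes, a description over few points that share vector, depth and library. For Ehhadh these were the heat shock genes Dnajb1 (r = 0.999) and Hspa1b (r = 0.998), and Med19 (r = 0.993). Hspa1b measured 27.6, 25.0 and 94.1 CPM in GFP livers and 20.4, 314 and 817 CPM in Cre livers. It has a near-identical copy, Hspa1a, with which it can share reads. Dnajb1 measured 26.3, 23.8 and 44.8 CPM against 22.1, 67.2 and 116 CPM, in the same order of libraries as Ehhadh. For Ppara the most similar genes were Dexi (r = 0.998), Tcaim (r = 0.997) and Pdhx (r = 0.997). Dexi measured 28.3, 28.8 and 27.5 CPM in GFP livers and 22.7, 19.0 and 21.8 CPM in Cre livers. For Cpt1a they were Tmem25, Hspd1 and Gsk3b, for Cpt2 Fam63a, Oplah and Minpp1, and for Bdh1 Tmed9, Gfpt1 and Stip1. For Acadm they were Ltv1, Arl8b and Rdh16, for Acadl Prrc2a, Kctd9 and Ldha, and for Hadha Chdh, Psmd7 and Nmt1, all with r between 0.981 and 0.999.

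**Figure D5:**
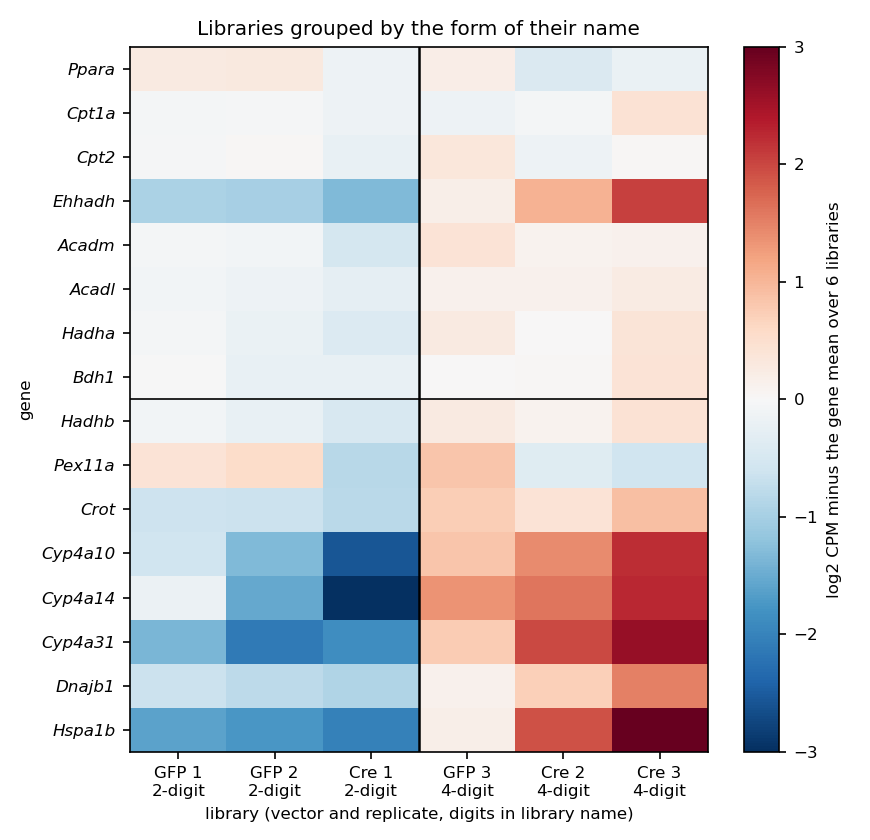
Log2 CPM of the 8 genes and 8 further genes in each library, minus the gene's mean over 6 libraries, with libraries grouped by the form of their name (vertical line). Ehhadh, the Cyp4a genes, Crot, Dnajb1 and Hspa1b are below their mean (blue) in the 2-digit libraries and above it in the 4-digit ones. For Ehhadh, Dnajb1 and Hspa1b, GFP replicate 3 is only slightly above the mean, and the red is that of Cre replicates 2 and 3. Ppara and Pex11a are lower in the Cre library or libraries of each form.

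Markers of other liver cells also differed between the groups. Summed over 8 hepatocyte markers, the level was 90346 to 112297 CPM in GFP livers and 79081 to 100746 CPM in Cre livers, and the median log2 fold change of these markers was 0.03. Alb alone held 62435 to 80785 CPM of this sum in GFP livers. At the nominal threshold 1 hepatocyte marker was higher and 1 lower. They were Cps1 (log2 fold change 0.74, adjusted p = 0.177 with edgeR) and Ttr (-0.57, adjusted p = 0.194), both without overlap. Cholangiocyte markers summed to 72.2 to 128 CPM in GFP livers, with 1 of 9 markers at 0 in each, and to 306 to 574 CPM in Cre livers, and 8 of 8 tested were higher at the nominal threshold. Spp1 alone held 219 to 457 CPM of this sum in Cre livers. The sums of stellate cell and fibroblast markers (236 to 356 against 465 to 965 CPM, 4 of 8 higher) and macrophage and Kupffer cell markers (172 to 199 against 242 to 327 CPM, 5 of 8 higher) had no overlap between the groups. The 4 higher stellate cell and fibroblast markers were Col1a1, Col1a2, Col3a1 and Pdgfrb. Des and Dcn were not called, and Lrat (-0.25) and Reln (-0.10) were below 0 on the log2 scale. Among macrophage markers Marco was at -0.75 (adjusted p = 0.380 with edgeR), and the others were above 0. Endothelial markers (179 to 290 against 189 to 222 CPM) had 1 of 8 lower at the nominal threshold, beside 8.41% of all genes. All 8 were below 0, with a median log2 fold change of -0.29. Adipocyte markers summed to 83.4 to 175 CPM in GFP livers and 24.1 to 34.5 CPM in Cre livers, with 3 of 4 tested lower. Plin4, Cfd and Cidea carried this sum, whereas Adipoq, a defining adipocyte gene, was at 0.20 to 0.37 CPM in GFP livers and 0.43 to 0.58 CPM in Cre livers, too low to be tested, and Lep was at 0.76 on the log2 scale, Cre over GFP (adjusted p = 0.403). The part of these cells in the difference of Ppara and of the pathway genes was not tested.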

How the data were processed

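RNA-seq of 6 livers was analysed, 3 per vector, grouped by the vector named in the labels. For every transcript the authors deposited the expected count, an RSEM-type estimate without normalization, and for every gene the FPKM, scaled by transcript length and library size. The processing notes name HISAT2, Bowtie2, RSEM and mm10, whereas the methods name STAR, HTSeq and DESeq2, in each case without versions. Exact whole numbers made up 45.4% of the deposited expected counts.

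Expected counts were summed per gene, rounded and tested with edgeR 4.0.16 in R 4.3.3 (TMM, filterByExpr, vector as the only factor, quasi-likelihood test, Benjamini-Hochberg adjustment over 13431 genes). Totals were 20356440 to 21010508. CPM error between mice is given as SD, and with 3 mice per group an exact permutation test cannot go below p = 0.1. The mice are separate samples per the labels, and within neither group did 2 libraries agree within sampling noise. Alternatives were DESeq2 1.42.0, limma 3.58.1 on log2(FPKM + 1) (and + 0.1) for genes at or above 0.5 FPKM in at least 3 libraries, other normalizations and filters, covariates, and each mouse left out. On simulated data edgeR recovered 79.5% of 200 changed genes among 13292, with 3.64% false calls, and 63.1% of the 103 changed by 1 on the log2 scale. In the same simulation 19.0% of the calls of DESeq2 were false. For limma it was 7.51%, there on log2(CPM + 1) with a CPM filter, which is not the FPKM setting used for the livers. Whether these rates hold for a difference of the size seen for Ppara, or beside a name-form difference, was not tested. The SE was derived from the quasi-F statistic.

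The 8 genes and the lists were chosen with earlier results of these data known. Named are the 8 genes, pathway genes past a threshold (at most 4 per list and direction at the nominal one), fixed neighbours in the pathway, Mettl14 and the 3 genes of most similar pattern (mean log2 CPM of at least 3). Name-form coefficients, their difference between forms and the annotated β-oxidation list were added after the data were seen. Coordinates and promoters come from RefSeq tables of GRCm38.p6, the patch release of mm10. Protein sequences were not used here, and some genes covered by the rule are not reported here.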

Additional observations from a re-analysis of the deposited data

How the results depend on the processing

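Ppara kept its direction under every one of the 16 alternatives tried and Cpt2 and Ehhadh kept theirs too, whereas the other 5 genes changed sign in at least 1. Genes past the adjusted threshold numbered 125 with edgeR, 1157 with DESeq2, 372 without a filter, 214 with the name form as a covariate, 76 with at least 10 counts in every library, 66 with upper quartile normalization, 27, 22 and 9 with limma on FPKM (pseudocount 0.1; 1; 1 without a filter), and 7 with the replicate block. With 1 mouse left out they ranged from 0 to 928, 0 without Cre replicate 2 or GFP replicate 2 and 928 without Cre replicate 1, and at the nominal threshold from 1899 to 3730 (2747 with all mice, 1699 with a fold of 1.5). Of the nominal calls 58.9% were higher with Cre, beside 72.3% with upper quartile normalization and 83.7% to 84.7% on FPKM. Of the 8 genes, 0 passed the adjusted threshold, 1 with DESeq2 (Ppara) and 0 to 1 with a mouse left out (Ehhadh without Cre replicate 1). At the nominal threshold 1 passed, 2 with DESeq2 or without a filter, 3 with the name-form covariate, 0 with a fold of 1.5, and 1 to 2 with a mouse left out (2 without Cre replicate 1 or GFP replicate 3). Pathway genes called higher numbered 2, 4 without a filter and 2 to 5 with a mouse left out (5 without Cre replicate 1 or GFP replicate 3). Those called lower numbered 13, 34 with the name-form covariate, 7, 7 and 6 with limma, and 10 to 17 with a mouse left out. The cause was not tested.

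Sign changes with the name-form covariate were -0.044 for Acadl, -0.17 for Hadha, -0.16 for Hadhb, -0.13 for Crot, -0.30 for Cyp4a10, -1.08 for Cyp4a14 and -0.24 for Pdk4. On FPKM they were 0.022 for Acaa2, 0.047 to 0.048 for Acadvl, 0.068 for Rxra and -0.022 for Pdk4. With a mouse left out the log2 fold change ranged from -0.029 to 0.21 for Acadl, -0.28 to 0.018 for Acadm, -0.023 to 0.30 for Bdh1, -0.021 to 0.29 for Cpt1a, -0.062 to 0.95 for Crot, -1.14 to 0.067 for Fgf21, -0.20 to 0.19 for Hadha, -0.17 to 0.27 for Hadhb, -0.93 to 0.49 for Pdk4. In 32 of these single-gene comparisons the sign changed, in 599 sign and side of the threshold held.

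Over all genes, mice with the same replicate number did not clearly deviate together. Both replicates 1 have 2-digit names and both replicates 3 have 4-digit names, so that a replicate block partly coincides with the name form. The correlations of same-numbered deviations were 0.009, -0.26 and 0.21, and with the replicate block Hadha was at -0.0086, Pdk4 was at -0.18 and Pex11a lost its adjusted call (p = 0.0861). Each of the 8 genes had at least 4005 counts in every library, so that the spread between mice, more than counting, set the error.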
